A study of Mus musculus with 8 samples.

Results

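The genes described here are the ErbB receptors and a set of their ligands, measured by single-end RNA sequencing of sorted basal cells of the mouse mammary gland. The members were chosen by name: the 4 receptors Egfr, Erbb2, Erbb3 and Erbb4 and the 6 ligands Nrg1, Nrg2, Hbegf, Tgfa, Ereg and Btc. All 10 were found by Entrez identifier among the 27164 genes of the count tables, and all 10 passed the filter on low counts. The cells came from the mammary glands of C57BL/6 females aged 10 weeks, untreated, and each carried the Lgr5-GFP-IRES-CreERT2 allele, in which green fluorescent protein and a tamoxifen-inducible Cre are made from the locus of the R-spondin receptor Lgr5. Basal cells form the contractile sheath around the luminal cells of a duct. They had been sorted by Lgr5 and by the tetraspanin Tspan8 (T8) into 4 populations, the T8hi cells being Lgr5+T8hi or Lgr5-T8hi and the T8- cells Lgr5+T8- or Lgr5-T8-, with 2 libraries each, 1 from batch 1 and 1 from batch 2. Every population carried the allele, and its zygosity is not in the labels. Whether both libraries of a population stem from different animals is not labelled either, and the p-values therefore cover only the spread among these libraries, which may be technical.

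ErbB proteins are receptor tyrosine kinases that signal as pairs. Egfr binds ligands of the EGF type, among them Tgfa, Hbegf, Ereg and Btc. Among the ligands of Erbb3 and Erbb4 are the neuregulins Nrg1 and Nrg2. Erbb2 has no known soluble ligand and serves as partner to the others, and Erbb3 has a weak kinase of its own. The ligands are made as membrane proteins that metalloproteases of the ADAM family release, and a main output is the Ras-ERK cascade. In the mammary gland the family is known for duct growth, alveolar development and lactation.

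Total counts ran from 24571300 to 38384875 per library. Levels are given as CPM (counts scaled to a common library total) with TMM-adjusted library sizes, and those of batch 1 are given before those of batch 2. The sort was visible for Tspan8, which had 150 to 289 CPM in the T8hi libraries and 3.16 to 10.6 CPM in the T8- libraries. Lgr5 had 174 to 212 CPM in the Lgr5+ libraries and 50.5 and 58.3 CPM in Lgr5-T8-, but 119 and 129 CPM in the libraries labelled Lgr5-T8hi. Basal identity was checked with Krt5, Krt14 and Acta2, which had 2105 to 2753, 3707 to 6235 and 3329 to 6758 CPM over the libraries, and the 10 basal and contractile markers summed to 13899 to 21480 CPM. Markers of other cell types were detected as well, and their counts or sums are given with each gate, the interaction and the batch. In such bulk samples, fewer cells of a type and less RNA per cell cannot be told apart.

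To compare genes with each other, CPM was divided by the gene length in the deposited tables (CPM per kilobase). Hbegf, the heparin-binding EGF-like factor, had the highest level, with a mean of 98.0 CPM per kilobase over the 8 libraries and a range of 54.5 to 140.3. Tgfa, transforming growth factor alpha, followed at 28.5 and the receptor Egfr at 26.5, then Nrg1 at 11.7, Erbb2 at 10.9, Ereg at 6.72, Erbb3 at 5.08 and Nrg2 at 2.51. Btc, at 0.167, and Erbb4, at 0.0900, came last. The ranges over the libraries overlapped between all neighbours in this order except at 2 places: the range of Hbegf lay above that of Tgfa, and that of Nrg2 above that of Btc. The counts behind the lowest levels were small, 4 to 29 per library for Erbb4 and 5 to 26 for Btc.

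**Figure D1:**
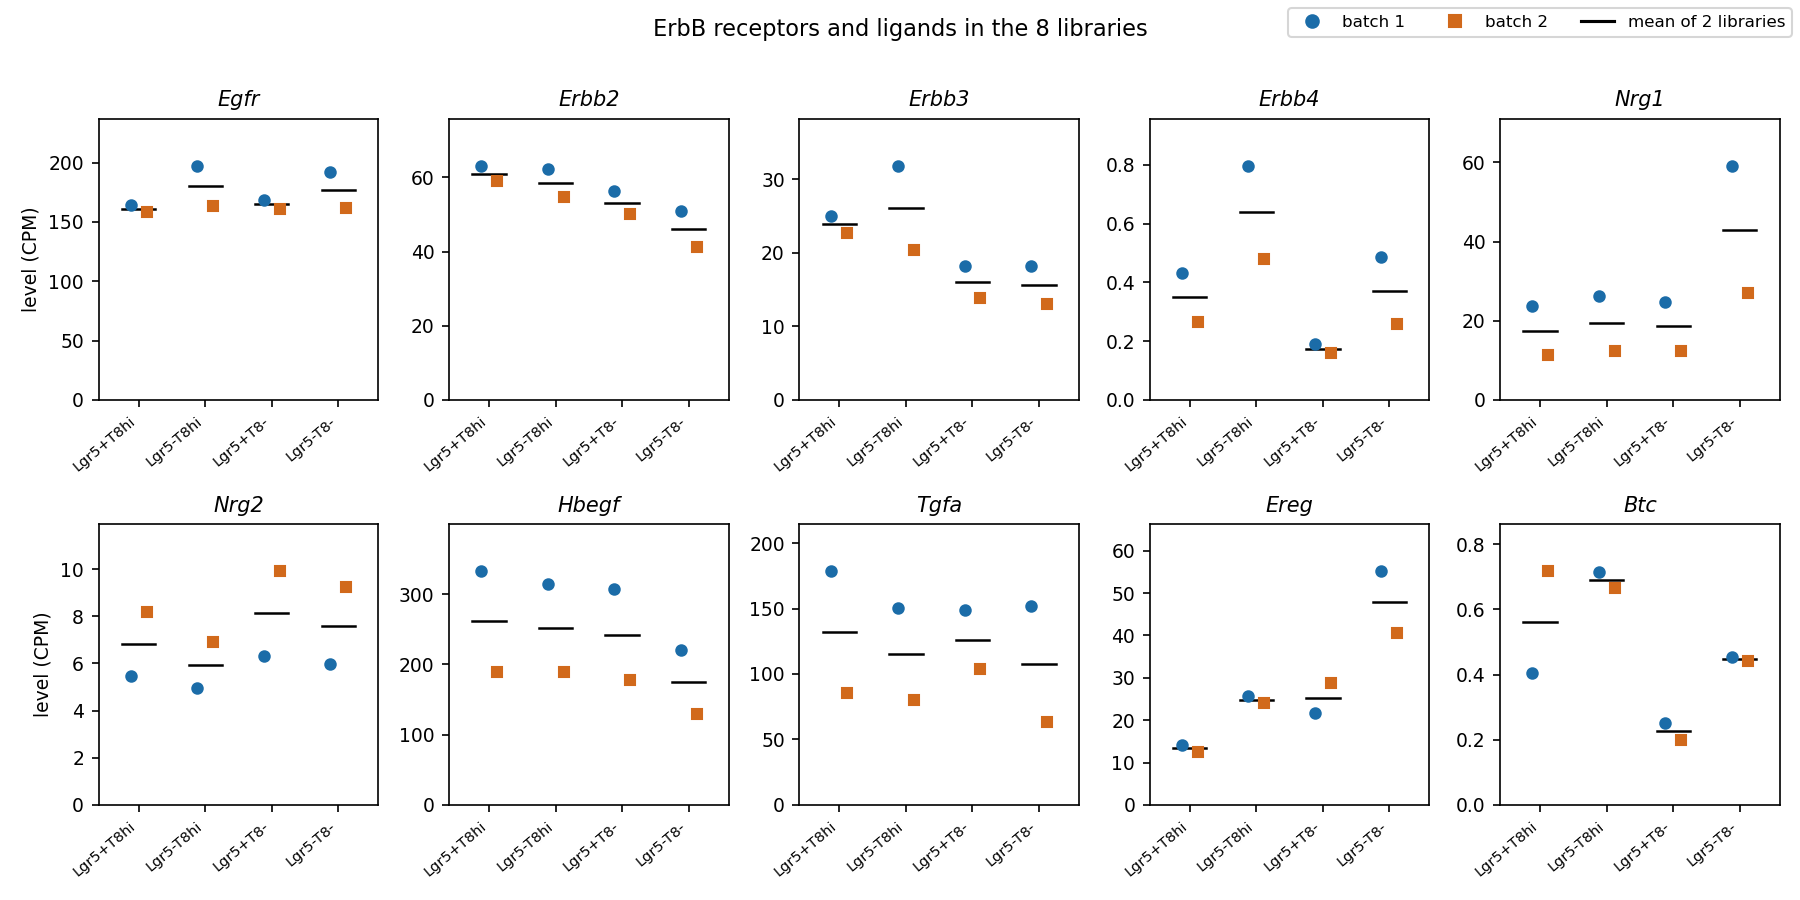
Level of each receptor and ligand in CPM (linear axes from 0, a separate scale for each gene) in the 4 populations; circles are batch 1, squares batch 2 and bars the mean of 2 libraries. Erbb3 lay at 20.4 to 31.8 CPM in the T8hi libraries and at 13.0 to 18.2 CPM in the T8- libraries, and within each batch Nrg1 and Ereg were highest and Hbegf lowest in Lgr5-T8-.

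The first question was whether the family differed with Tspan8. The Tspan8 effect is the mean of the 2 T8hi populations minus that of the 2 T8- populations, on the log2 scale. Among receptors, Erbb2 and Erbb3 were higher in T8hi cells, and among ligands Hbegf was higher while Nrg1 and Ereg were lower. These 5 of 10 members passed an adjusted p of 0.05 (edgeR, Benjamini-Hochberg over 16526 genes), against 14.6% of all genes tested, of which 9.13% were higher and 5.52% lower. The direction in which a member differed was the same in both batches for all 10. For Egfr both values were close to 0 (-0.0038 in batch 1 and -0.00044 in batch 2). The same count over all genes was not made.

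Erbb3, the neuregulin receptor that relies on a partner kinase, had 25.1 and 22.7 CPM in Lgr5+T8hi cells, 31.8 and 20.4 in Lgr5-T8hi, 18.1 and 13.9 in Lgr5+T8-, and 18.2 and 13.0 in Lgr5-T8-. The 4 T8hi libraries lay above the 4 T8- libraries without overlap. The difference was 0.66 ± 0.09 (log2 ± SE, edgeR adjusted p = 3.87e-04), and it stayed past the threshold with each library left out in turn. It was present at both Lgr5 levels, at 0.59 within Lgr5+ (adjusted p = 0.0116) and 0.73 within Lgr5- (adjusted p = 0.00351). With 1 library fewer these separate values were less firm. Within Lgr5+ the adjusted p was 0.217 when replicate 2 of Lgr5+T8hi was left out, and 0.0616 or 0.0813 when replicate 1 or 2 of Lgr5+T8- was. Within Lgr5- it was 0.101 without Lgr5-T8hi replicate 1.

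Erbb2, the shared partner receptor, had 63.1 and 59.0 CPM in Lgr5+T8hi cells, 62.1 and 54.7 in Lgr5-T8hi, 56.4 and 50.0 in Lgr5+T8-, and 50.9 and 41.2 in Lgr5-T8-. The order of the 4 populations was the same in both batches, with Lgr5+T8hi highest and Lgr5-T8- lowest, although the T8hi and T8- ranges overlapped across batches. The Tspan8 effect was 0.27 ± 0.06 (edgeR adjusted p = 0.0119). It missed the threshold when replicate 2 of either T8hi population was left out (adjusted p = 0.0775 for Lgr5+T8hi and 0.0722 for Lgr5-T8hi). Within Lgr5- cells it was 0.35 (adjusted p = 0.0363), a call that DESeq2 did not make (adjusted p = 0.0736) and that was lost with any of 5 of the 8 libraries left out, with adjusted p-values of up to 0.298.

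Egfr, a receptor for the EGF-type ligands, stood at 164 and 159 CPM in Lgr5+T8hi cells, 197 and 164 in Lgr5-T8hi, 169 and 161 in Lgr5+T8-, and 193 and 162 in Lgr5-T8-. The T8hi and T8- libraries covered nearly the same range. The Tspan8 effect was -0.0018 with a 95% confidence interval from -0.15 to 0.15, and the sign of a value this close to 0 changed with the normalization. Erbb4, which binds neuregulins and is known for its role in lactation, was near the detection limit at 0.432 and 0.265 CPM in Lgr5+T8hi cells, 0.796 and 0.479 in Lgr5-T8hi, 0.189 and 0.159 in Lgr5+T8-, and 0.485 and 0.257 in Lgr5-T8-. In Lgr5+T8-, where it was lowest, these levels rest on 6 and 4 counts, beside 3 counts as the floor for a library. Its Tspan8 effect of 0.89 ± 0.35 did not pass (edgeR adjusted p = 0.119), with an interval from 0.12 to 1.65.

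The share of each receptor in the summed receptor level per kilobase moved accordingly. Egfr made up 57.3 to 61.2% in the T8hi libraries and 62.3 to 68.5% in the T8- libraries, Erbb2 24.3 to 28.4% and 22.5 to 26.8%, and Erbb3 12.2 to 15.5% and 8.86 to 10.7%. Erbb4 stayed below 0.4% in every library.

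The sequences before the annotated starts of Erbb2, whose level differed between the Tspan8 gates, and Egfr, whose level did not pass the test, are shown for reference. The RefSeq promoter table for GRCm38.p6 held 5 of the 10 members, and in each line below the 250 bases before the start are written 5′ to 3′ on the plus strand.
Erbb2 (chr11:98412234-98412483): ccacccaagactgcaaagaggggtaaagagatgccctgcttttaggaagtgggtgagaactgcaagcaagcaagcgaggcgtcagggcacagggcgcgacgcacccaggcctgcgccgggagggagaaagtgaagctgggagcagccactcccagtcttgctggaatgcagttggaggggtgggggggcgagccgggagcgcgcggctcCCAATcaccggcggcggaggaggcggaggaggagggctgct
Egfr (chr11:16751953-16752202): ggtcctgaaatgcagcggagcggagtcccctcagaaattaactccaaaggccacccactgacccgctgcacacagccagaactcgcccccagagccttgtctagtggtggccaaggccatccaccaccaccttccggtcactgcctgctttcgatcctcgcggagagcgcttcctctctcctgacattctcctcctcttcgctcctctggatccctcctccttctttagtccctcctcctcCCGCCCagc
Capitals mark the only matches found on either strand to 4 searched motifs. Erbb2 held CCAAT from -41 to -37, counted from -1 at the last base before the start, and Egfr held GGGCGG on the reverse strand from -9 to -4. Among 32851 promoters cut to the same length, 33.8% held CCAAT and 32.7% held GGGCGG. The TATA box letters TATAAA occurred in 12.4% of them and the AP-2 letters GCCNNNGGC in 13.7%, and neither motif had a match in the window of these receptors. Erbb2 had 16 CpG and 66.0% GC and Egfr 11 CpG and 60.8% GC, beside medians of 6 CpG and 52.4% over all promoters. Motifs were counted separately, although a CCAAT match can lie inside the AP-2 letters and a GGGCGG match can share bases with their end. A match is a description of letters and was not tested as a site.

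Signals of luminal cells, the inner layer of the duct, moved with the same gate as Erbb2 and Erbb3. The 8 luminal progenitor markers were all higher in T8hi (8 of 8 passed) and summed to 225 to 329 CPM in T8hi and 79.1 to 118 CPM in T8- libraries. Of the 8 pan-luminal markers 6 were higher, with sums of 1307 to 2225 and 1004 to 2025 CPM, and of the 8 hormone-sensing luminal markers 4 were higher, with sums of 388 to 666 and 289 to 534 CPM. Fibroblast markers were higher for 7 of 8, endothelial for 5 of 8, pericyte for 6 of 7, immune for 5 of 8, Schwann cell for 3 of 7 and adipocyte for 2 of 4 tested, with 1 lower. Their summed levels ran over 675 to 1169, 104 to 399, 137 to 179, 22.6 to 45.6, 202 to 249 and 98.8 to 329 CPM in T8hi libraries. In T8- libraries the same sums ran over 305 to 701, 70.3 to 145, 67.0 to 134, 15.3 to 23.5, 163 to 192 and 47.0 to 75.5 CPM. Of the 10 basal markers 6 were lower, with sums of 13899 to 16416 CPM in T8hi and 18100 to 21480 CPM in T8- libraries. No marker was at 0 in every library, and Adipoq and Cidec were at 0 in at least 1. The part of other cell types in the receptor and ligand differences was not tested.

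Among ligands, Nrg1, the neuregulin that binds Erbb3 and Erbb4, had 23.6 and 11.3 CPM in Lgr5+T8hi cells, 26.4 and 12.2 in Lgr5-T8hi, 24.7 and 12.4 in Lgr5+T8-, and 59.1 and 26.9 in Lgr5-T8-. In each batch 3 populations lay close together and Lgr5-T8- stood above them. The Tspan8 effect was -0.62 ± 0.07 (edgeR adjusted p = 1.02e-04), and the Lgr5 effect, the mean of the Lgr5+ populations minus that of the Lgr5- populations, was -0.67 ± 0.07 (adjusted p = 1.08e-04). Both rest on Lgr5-T8-. Within Lgr5- cells T8hi was lower by -1.15 ± 0.10 (adjusted p = 3.25e-05) and within T8- cells Lgr5+ was lower by -1.19 ± 0.10 (adjusted p = 2.35e-05), 2 comparisons that share the Lgr5-T8- libraries.

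The test of that pattern is the interaction, the Tspan8 effect within Lgr5+ cells minus that within Lgr5- cells. For Nrg1 it was 1.05 ± 0.14 (edgeR adjusted p = 0.00285), with 1.10 in batch 1 and 0.99 in batch 2, and it stayed past the threshold with any 1 library left out. Nrg1 was the 1 member of 10 called in this comparison, against 2.55% of all genes tested (2.18% higher, 0.363% lower). The sign of the interaction was the same in both batches for 5 of the 10 members, Nrg1 among them. The level of the sort gene Lgr5 had an interaction of its own, -1.30 ± 0.15 (adjusted p = 0.00164): among cells labelled Lgr5-, its transcript was higher in T8hi by 1.18. Of the populations, Lgr5-T8- thus had both the least Lgr5 transcript and the most Nrg1, and the part of the gate in the Nrg1 difference was not tested. Markers of other cell types had interactions of the same sign as Nrg1: 3 of 8 fibroblast, 3 of 7 pericyte, 3 of 8 immune, 2 of 8 endothelial and 1 of 4 adipocyte markers were called, with list medians of 0.81, 1.12, 2.12, 1.91 and 0.97. Of the luminal progenitor markers 1 of 8 was called with the opposite sign. Fibroblast, endothelial, immune and adipocyte sums were highest in Lgr5+T8hi in both batches, whereas Nrg1 was highest in Lgr5-T8-. The part of these cell types was not tested.

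Ereg, epiregulin, had 14 and 12.6 CPM in Lgr5+T8hi cells, 25.6 and 24 in Lgr5-T8hi, 21.7 and 28.8 in Lgr5+T8-, and 55.3 and 40.5 in Lgr5-T8-. Both Lgr5-T8- libraries lay above the other 6 and both Lgr5+T8hi libraries below the other 6, with the remaining populations between. The Tspan8 effect was -0.93 ± 0.12 (edgeR adjusted p = 0.00113) and the Lgr5 effect -0.91 ± 0.12 (adjusted p = 0.00198). Unlike for Nrg1, the interaction was small, 0.02 ± 0.25, but its interval from -0.54 to 0.59 leaves room for differences in either direction, and its sign differed between batches (0.48 and -0.43). All 4 separate comparisons passed. T8hi was lower by -0.92 within Lgr5+ (adjusted p = 0.0127) and -0.95 within Lgr5- (adjusted p = 0.0101), and Lgr5+ was lower by -0.90 within T8hi (adjusted p = 0.0315) and -0.92 within T8- (adjusted p = 0.0109). The last of these kept its call with each library left out. Within Lgr5+ it was lost when replicate 1 or 2 of Lgr5+T8hi was left out (adjusted p = 0.108 and 0.169) or replicate 2 of Lgr5+T8- (0.0512), within Lgr5- without Lgr5-T8hi replicate 1 (0.0746) or 2 (0.0606), and within T8hi without any 1 of its 4 libraries (0.0903 to 0.327).

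Hbegf had 333 and 189.8 CPM in Lgr5+T8hi cells, 315 and 189 in Lgr5-T8hi, 307 and 178 in Lgr5+T8-, and 221 and 129 in Lgr5-T8-. It ran opposite to Nrg1: within each batch Lgr5-T8- was the lowest population and the other 3 lay close together. The Tspan8 effect was 0.32 ± 0.06 (edgeR adjusted p = 0.00485) and was lost without Lgr5-T8hi replicate 2 (adjusted p = 0.0581). The Lgr5 effect was 0.26 ± 0.06 (adjusted p = 0.0247) and was lost with any of 6 of the 8 libraries left out, with adjusted p-values of up to 0.236. As for Nrg1, the differences were larger beside Lgr5-T8-. They were 0.53 between the Tspan8 gates within Lgr5- (adjusted p = 0.00322, and 0.0915 without Lgr5-T8hi replicate 2) and 0.47 between the Lgr5 gates within T8- (adjusted p = 0.00623, and 0.0715 without Lgr5+T8- replicate 1). The interaction of -0.42 ± 0.13, with -0.39 and -0.45 in the 2 batches, did not pass (adjusted p = 0.132).

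**Figure D2:**
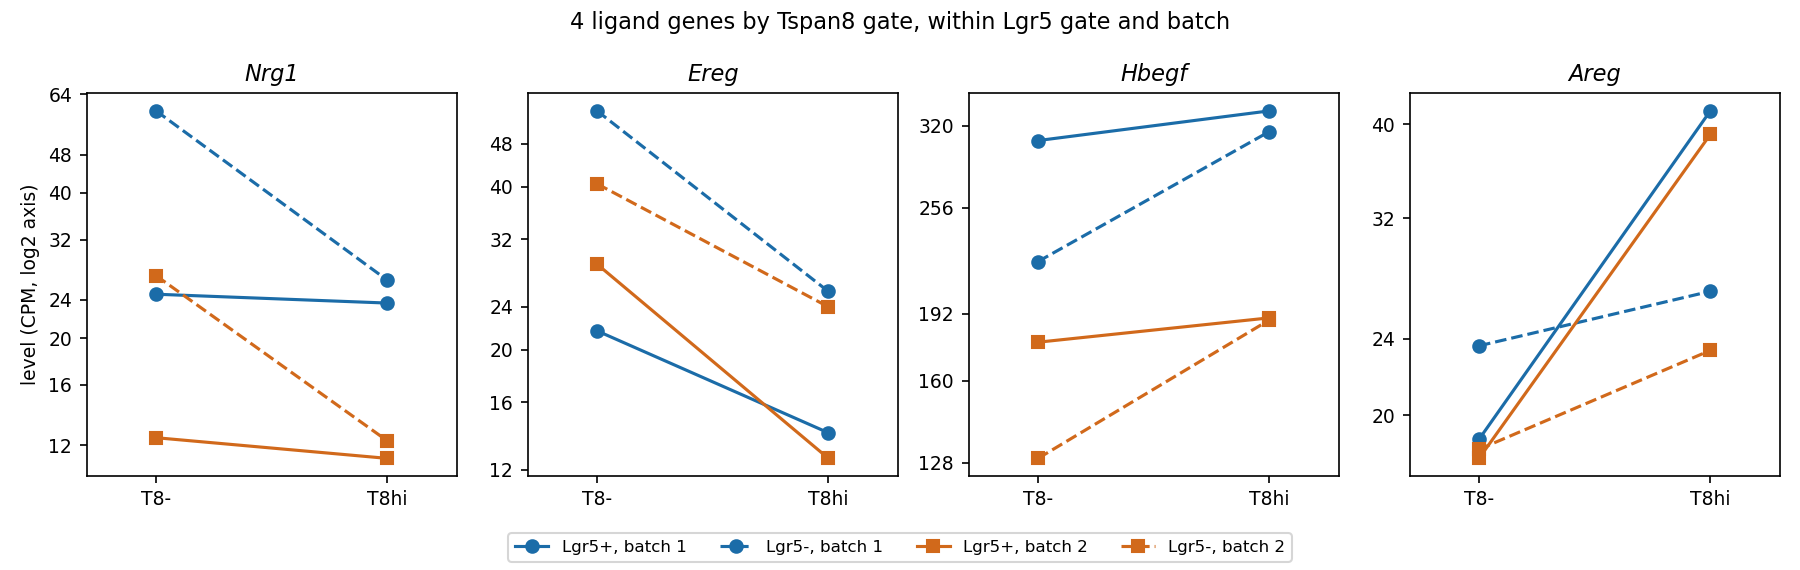
CPM (log2 axis, not from 0, separate scales) of 4 ligand genes in T8- and T8hi cells; each line joins the 2 libraries of 1 Lgr5 gate (solid Lgr5+, dashed Lgr5-) and 1 batch (blue circles batch 1, orange squares batch 2). Nrg1 dropped from T8- to T8hi within Lgr5- (59.1 to 26.4 and 26.9 to 12.2 CPM) and was nearly level within Lgr5+, while Ereg was lower in T8hi on all 4 lines and Areg rose most within Lgr5+.

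The other 3 ligands did not pass for either gate. Tgfa had 179 and 85.3 CPM in Lgr5+T8hi cells, 151 and 80.2 in Lgr5-T8hi, 149 and 104 in Lgr5+T8-, and 152 and 63.0 in Lgr5-T8-, so that batch separated its libraries and the populations did not. Its Tspan8 effect was 0.07 ± 0.11 (interval -0.18 to 0.31) and its Lgr5 effect 0.26 ± 0.11 (edgeR adjusted p = 0.203), the latter passing without Lgr5+T8- replicate 1 (0.0299) or Lgr5-T8- replicate 1 (0.0369). Nrg2, the second neuregulin, had 5.48 and 8.17 CPM in Lgr5+T8hi cells, 4.97 and 6.90 in Lgr5-T8hi, 6.33 and 9.93 in Lgr5+T8-, and 5.97 and 9.23 in Lgr5-T8-. Within each batch both T8- libraries lay above both T8hi libraries, and the Tspan8 effect was -0.30 ± 0.10 (adjusted p = 0.0806). Btc, betacellulin, had 0.404 and 0.718 CPM in Lgr5+T8hi cells, 0.714 and 0.666 in Lgr5-T8hi, 0.252 and 0.199 in Lgr5+T8-, and 0.455 and 0.441 in Lgr5-T8-. Both its lowest levels were in Lgr5+T8-, from 8 and 5 counts, and its Tspan8 effect was 0.93 ± 0.33 (adjusted p = 0.0888).

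Among the 6 member ligands, the mixture therefore differed most in Lgr5-T8-. There Hbegf made up 53.9 and 57.1% of the summed ligand level per kilobase, beside 64.6 to 71.6% in the other 6 libraries. Nrg1 made up 16.3 and 13.4% there, beside 4.80 to 6.63%, and Ereg 7.73 and 10.3%, beside 1.70 to 6.01%. Tgfa stayed between 15.6 and 21.2% over all 8 libraries. Areg, Epgn and the other further ligands described below are not part of these sums.

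**Figure D3:**
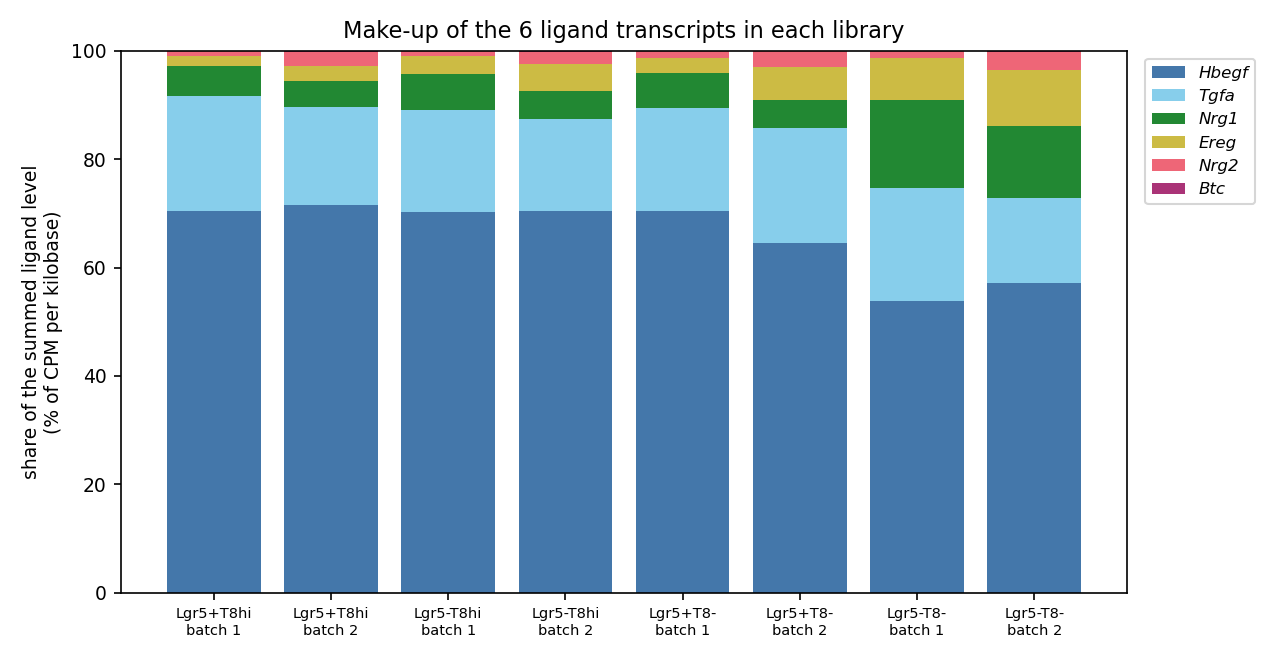
Share of each of the 6 ligands in the summed ligand level of a library, in percent of CPM per kilobase; each bar is 1 library. In both Lgr5-T8- bars Nrg1 (16.3 and 13.4%) and Ereg (7.73 and 10.3%) take more and Hbegf (53.9 and 57.1%) takes less than in the other 6 bars; Btc is too small to see.

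For the Lgr5 effect 3 of 10 members passed, against 9.09% of all genes tested (4.23% higher, 4.86% lower): Hbegf was higher and Nrg1 and Ereg lower in Lgr5+ cells. All 3 are ligands. Among receptors Egfr was at -0.13 ± 0.07 (edgeR adjusted p = 0.307), Erbb2 at 0.14 ± 0.06 (0.220), Erbb3 at -0.03 ± 0.09 (0.876) and Erbb4 at -0.97 ± 0.35 (0.116). Erbb4 was lower in Lgr5+ than in Lgr5- cells at both Tspan8 levels and in both batches, but on few counts. The 9 of 10 members other than Erbb3 had the same direction in both batches. With this gate 5 of 8 pan-luminal markers were higher, summing to 1147 to 2225 CPM in Lgr5+ and 1004 to 2002 CPM in Lgr5- libraries, and 4 of 8 luminal progenitor markers were lower, summing to 94.4 to 253 and 79.1 to 329 CPM. Pericyte markers were lower for 3 of 7 and Schwann cell markers for 2 of 7. Fibroblast markers were higher for 2 and lower for 2 of 8, hormone-sensing luminal markers higher for 2 of 8, and basal markers higher for 2 and lower for 3 of 10. Within T8- cells, 4 of 7 pericyte and 3 of 8 fibroblast markers were lower in Lgr5+, as were 1 of 8 endothelial and 3 of 10 basal markers. Pericyte sums there were 67.0 and 74.3 CPM in Lgr5+T8- and 134 and 118 CPM in Lgr5-T8-, and fibroblast sums 305 and 334 beside 539.6 and 701 CPM. In the same comparison 6 of 8 pan-luminal, 1 of 8 hormone-sensing and 1 of 10 basal markers were higher. Of the 8 luminal progenitor markers there, 1 was higher and 1 lower. Within T8hi cells, where Ereg was also lower in Lgr5+, 0 of 7 pericyte markers were called, with a list median of 0.12. There 5 of 8 immune, 2 of 8 fibroblast, 2 of 8 endothelial and 1 of 4 adipocyte markers were higher in Lgr5+. So were 1 of 8 hormone-sensing and 1 of 8 pan-luminal markers, while 1 of 7 Schwann cell, 1 of 8 luminal progenitor and 1 of 10 basal markers were lower. The part of these cell types in the Lgr5 differences was not tested.

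The 4 separate comparisons hold 2 of 10 members called for Tspan8 within Lgr5+ (9.44% of all genes, 7.27% higher and 2.17% lower), 5 of 10 for Tspan8 within Lgr5- (7.06%, 3.70% and 3.36%), 1 of 10 for Lgr5 within T8hi (3.34%, 2.29% and 1.05%) and 3 of 10 for Lgr5 within T8- (8.86%, 3.81% and 5.05%). Which members passed is given above for each gene, and except for Nrg1 no member's difference between these comparisons passed the interaction test.

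**Figure D4:**
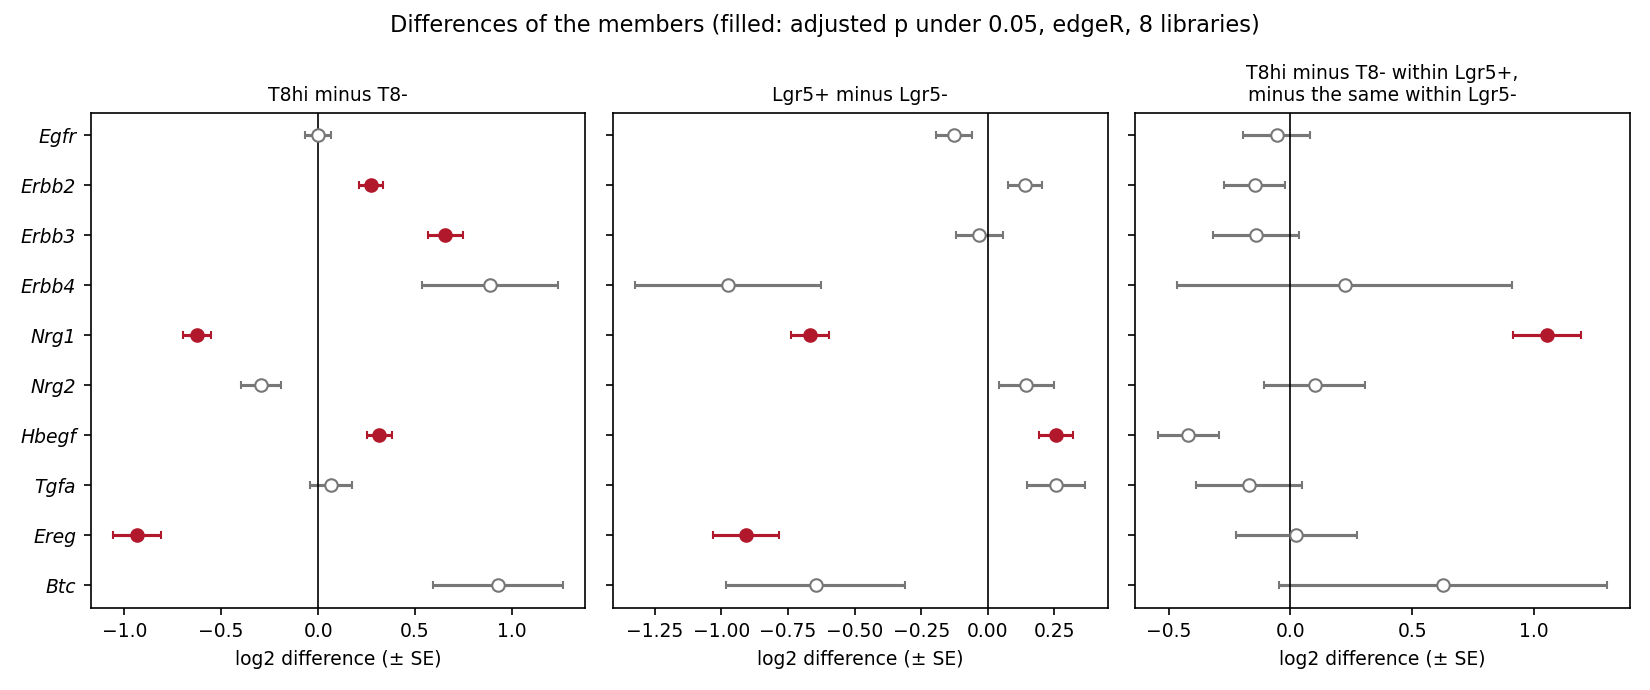
Log2 difference ± SE (edgeR, 8 libraries, batch in the model) of each member for the Tspan8 gate, the Lgr5 gate and their interaction; filled red points have an adjusted p under 0.05, and the 3 panels have separate scales. Nrg1 and Ereg lie left of 0 and Hbegf right of 0 for both gates, and Nrg1 is the only filled point for the interaction, at 1.05.

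In absolute size the batch difference was larger than each gate difference for Tgfa, Hbegf and Nrg2. For Nrg1 it was near the difference of Tspan8 within Lgr5- (-1.15) and that of Lgr5 within T8- (-1.19). From batch 1 to batch 2, Nrg1 was lower by -1.08 ± 0.07 (edgeR adjusted p = 8.51e-06), Tgfa by -0.94 ± 0.11 (3.99e-04), Hbegf by -0.78 ± 0.06 (2.13e-05), Erbb3 by -0.41 ± 0.09 (0.00437, and 0.0680 without Lgr5-T8hi replicate 1) and Erbb2 by -0.19 ± 0.06 (0.0375). Nrg2 was higher by 0.58 ± 0.10 (0.00156). These are 6 of 10 members, against 32.9% of all genes tested (16.0% higher, 16.9% lower). The call for Erbb2 was lost with each of the 8 libraries left out (adjusted p up to 0.216) and with DESeq2 (0.0617). In the direction of the 5 lower members, 7 of 8 pan-luminal markers were lower in batch 2 (list median -0.45), as were 3 of 8 luminal progenitor and 3 of 8 hormone-sensing markers, each with 1 of 8 higher. Of the 10 basal markers 4 were higher and 3 lower, and of the 7 pericyte markers 1 was higher and 1 lower. Immune markers were higher for 1 of 8 and Schwann cell markers lower for 1 of 7. No fibroblast, endothelial or adipocyte marker was called. The part of these cell types in the batch differences was not tested. What the batches were is not given in the labels. With batch left out of the model, 1 of the 5 members called for Tspan8 still passed, Ereg (adjusted p = 0.0125), and likewise 1 of the 3 called for Lgr5, again Ereg (0.0234). The Nrg1 differences kept their size without batch, at -0.62 for Tspan8 and -0.68 for Lgr5, but did not pass (0.595 and 0.658). The count of all genes called without batch is not given here, so these losses cannot be read as particular to the members.

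The other genes of the pathway were taken from 5 lists of 61 genes, of which 60 were tested. For Tspan8, 3 were higher and 6 lower (15.0%), and for Lgr5 1 was higher and 9 lower (16.7%), beside the 14.6 and 9.09% of all genes. The list medians were -0.02 and -0.01, and those of all genes tested -0.02 and 0.01.

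Of 5 further ligands 4 were tested, and Nrg3 had 0 counts in every library. Areg, amphiregulin, an Egfr ligand needed for duct growth, had 41.3 and 39.1 CPM in Lgr5+T8hi cells, 26.9 and 23.4 in Lgr5-T8hi, 18.9 and 18.1 in Lgr5+T8-, and 23.6 and 18.5 in Lgr5-T8-. It was highest in Lgr5+T8hi in both batches, the population in which Ereg was lowest. Its Tspan8 effect was 0.69 ± 0.07 (edgeR adjusted p = 7.25e-05), with 1.12 ± 0.11 within Lgr5+ (5.42e-05) and 0.26 ± 0.11 within Lgr5- (0.200). The interaction was 0.86 ± 0.15 (0.0110, and 0.0952 without Lgr5+T8hi replicate 2). Hormone-sensing luminal cells are known as a source of Areg, and their 8 markers summed to 666 and 514 CPM in Lgr5+T8hi, the highest of the populations in each batch. The next highest sums, 534 and 422 CPM, were in Lgr5+T8-, where Areg was lowest in both batches. In Lgr5-T8hi, where Areg was higher, they were 456 and 388 CPM. For the interaction 0 of these 8 markers were called. The summed fibroblast, endothelial, immune and adipocyte markers were also highest in Lgr5+T8hi in both batches, at 945 and 1169, 359 and 399, 33.8 and 45.6, and 329 and 230.4 CPM. Of these lists, markers were called for the interaction as given for Nrg1. The part of these cell types in the Areg difference was not tested.

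Epgn, epigen, another Egfr ligand, had 4.35 and 3.06 CPM in Lgr5+T8hi cells, 5.90 and 5.94 in Lgr5-T8hi, 4.47 and 5.50 in Lgr5+T8-, and 13.0 and 13.0 in Lgr5-T8-. Like Nrg1 and Ereg it was highest in Lgr5-T8-, with a Tspan8 effect of -0.77 ± 0.13 (edgeR adjusted p = 0.00182) and an Lgr5 effect of -1.03 ± 0.13 (4.03e-04). Egf, at 0.266 to 0.797 CPM, and Nrg4, at 1.40 to 3.21 CPM, did not pass for either gate.

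Epgn, Ereg, Areg and Btc are neighbours on chromosome 5, at chr5:91027517-91035212, chr5:91074617-91093649, chr5:91139599-91148432 and chr5:91357261-91402994 (GRCm38.p6, whole gene spans), within 375 kb. Epgn and Ereg were lower and Areg higher in T8hi cells, so the 3 genes called in this span did not share 1 direction.

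Of 9 genes for ligand release, Adam12 was lower in T8hi cells by -1.0 ± 0.12 (edgeR adjusted p = 3.71e-04). Its levels were 9.89 and 12.5 CPM in Lgr5+T8hi cells, 14.5 and 12.8 in Lgr5-T8hi, 20.1 and 25.7 in Lgr5+T8-, and 29.6 and 23.7 in Lgr5-T8-, without overlap between the gates. Adam19 was higher in T8hi by 0.41 ± 0.09 (0.00805, and 0.0671 without Lgr5+T8hi replicate 2 or 0.0524 without Lgr5-T8hi replicate 1) and in Lgr5+ by 0.59 ± 0.09 (0.00133). Both encode membrane metalloproteases. Of 11 inhibitors and degradation factors 2 passed, both lower in Lgr5+ cells. These were Errfi1, an intracellular Egfr inhibitor, at -0.50 ± 0.10 (0.00704, and 0.0592 without Lgr5+T8hi replicate 2 or 0.0507 without Lgr5-T8hi replicate 1), and Lrig1, which promotes receptor turnover, at -0.28 ± 0.06 (0.0132). The Lrig1 call was lost with any of 5 of the 8 libraries left out, with adjusted p-values of up to 0.101.

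Among 18 adaptors and effectors, Gab2, a docking protein, was higher in T8hi by 1.10 ± 0.14 (edgeR adjusted p = 2.40e-04). It had 6.89 and 6.39 CPM in Lgr5+T8hi cells, 5.57 and 4.66 in Lgr5-T8hi, 2.17 and 1.43 in Lgr5+T8-, and 4.88 and 3.42 in Lgr5-T8-, so that Lgr5+T8- was lowest in both batches. The Tspan8 effect was 1.88 ± 0.21 within Lgr5+ (1.36e-04) and 0.31 ± 0.19 within Lgr5- (0.419), and the interaction was 1.57 ± 0.28 (0.0123). That call was lost when replicate 2 of Lgr5+T8hi (0.0951), replicate 1 of Lgr5-T8hi (0.0539) or replicate 2 of Lgr5+T8- (0.0568) was left out. Within Lgr5+ cells 8 of 8 endothelial, 8 of 8 fibroblast and 7 of 8 immune markers were also higher in T8hi, with list medians of 2.17, 1.94 and 2.55. Within Lgr5- the medians were 0.19, 0.92 and 0.11. Luminal progenitor markers were higher within Lgr5+ for 7 of 8 (median 1.84, and 1.71 within Lgr5-). Pericyte markers were so for 6 of 7 (median 1.58, and 0.39 within Lgr5-). Hormone-sensing and pan-luminal markers were each higher within Lgr5+ for 4 of 8. Schwann cell markers were higher there for 2 of 7 and adipocyte markers for 2 of 4, with 1 lower. Of the 10 basal markers 6 were lower. The part of these cell types in the Gab2 difference was not tested.

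Of 18 genes that respond to ERK signalling, 4 were lower in T8hi and 6 were lower in Lgr5+ cells, beside 5.52 and 4.86% of all genes tested that were lower. The list median was -0.05 for Tspan8 and -0.18 for Lgr5. Etv5, a transcription factor of the PEA3 group, had 20.6 and 25.5 CPM in Lgr5+T8hi cells, 26.4 and 32.4 in Lgr5-T8hi, 24.9 and 33.8 in Lgr5+T8-, and 43.3 and 72.0 in Lgr5-T8-. It was lower by -0.64 ± 0.08 in T8hi (edgeR adjusted p = 2.65e-04) and by -0.65 ± 0.08 in Lgr5+ cells (3.50e-04), and like Ereg it was highest in Lgr5-T8- and lowest in Lgr5+T8hi in both batches. Etv4 of the same group was lower in T8hi by -0.50 ± 0.08 (8.50e-04). Dusp4, an ERK phosphatase, was at -0.43 ± 0.10 for Tspan8 (0.0109) and -0.68 ± 0.10 for Lgr5 (0.00106), and Spred1, an inhibitor of the Ras cascade, at -0.47 ± 0.08 for Lgr5 (0.00208). The Tspan8 call of Dusp4 was lost without replicate 1 of Lgr5+T8hi (0.0633), Lgr5+T8- (0.0619) or Lgr5-T8- (0.0522). Etv1, the third PEA3 factor, was at -0.32 ± 0.10 for Tspan8 (0.0426, lost with each of the 8 libraries left out, up to 0.209) and -0.43 ± 0.10 for Lgr5 (0.0157, lost with 5 of them, up to 0.112). Across all 61 genes, 3 passed for the interaction (5.0% of those tested, beside 2.55% of all genes): Areg, Gab2 and Spry4, an inhibitor of the same cascade at 0.60 ± 0.14 (0.0432). Spry4 was named after its values were seen, and its call was lost with any of 5 of the 8 libraries left out, with adjusted p-values of up to 0.289.

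**Figure D5:**
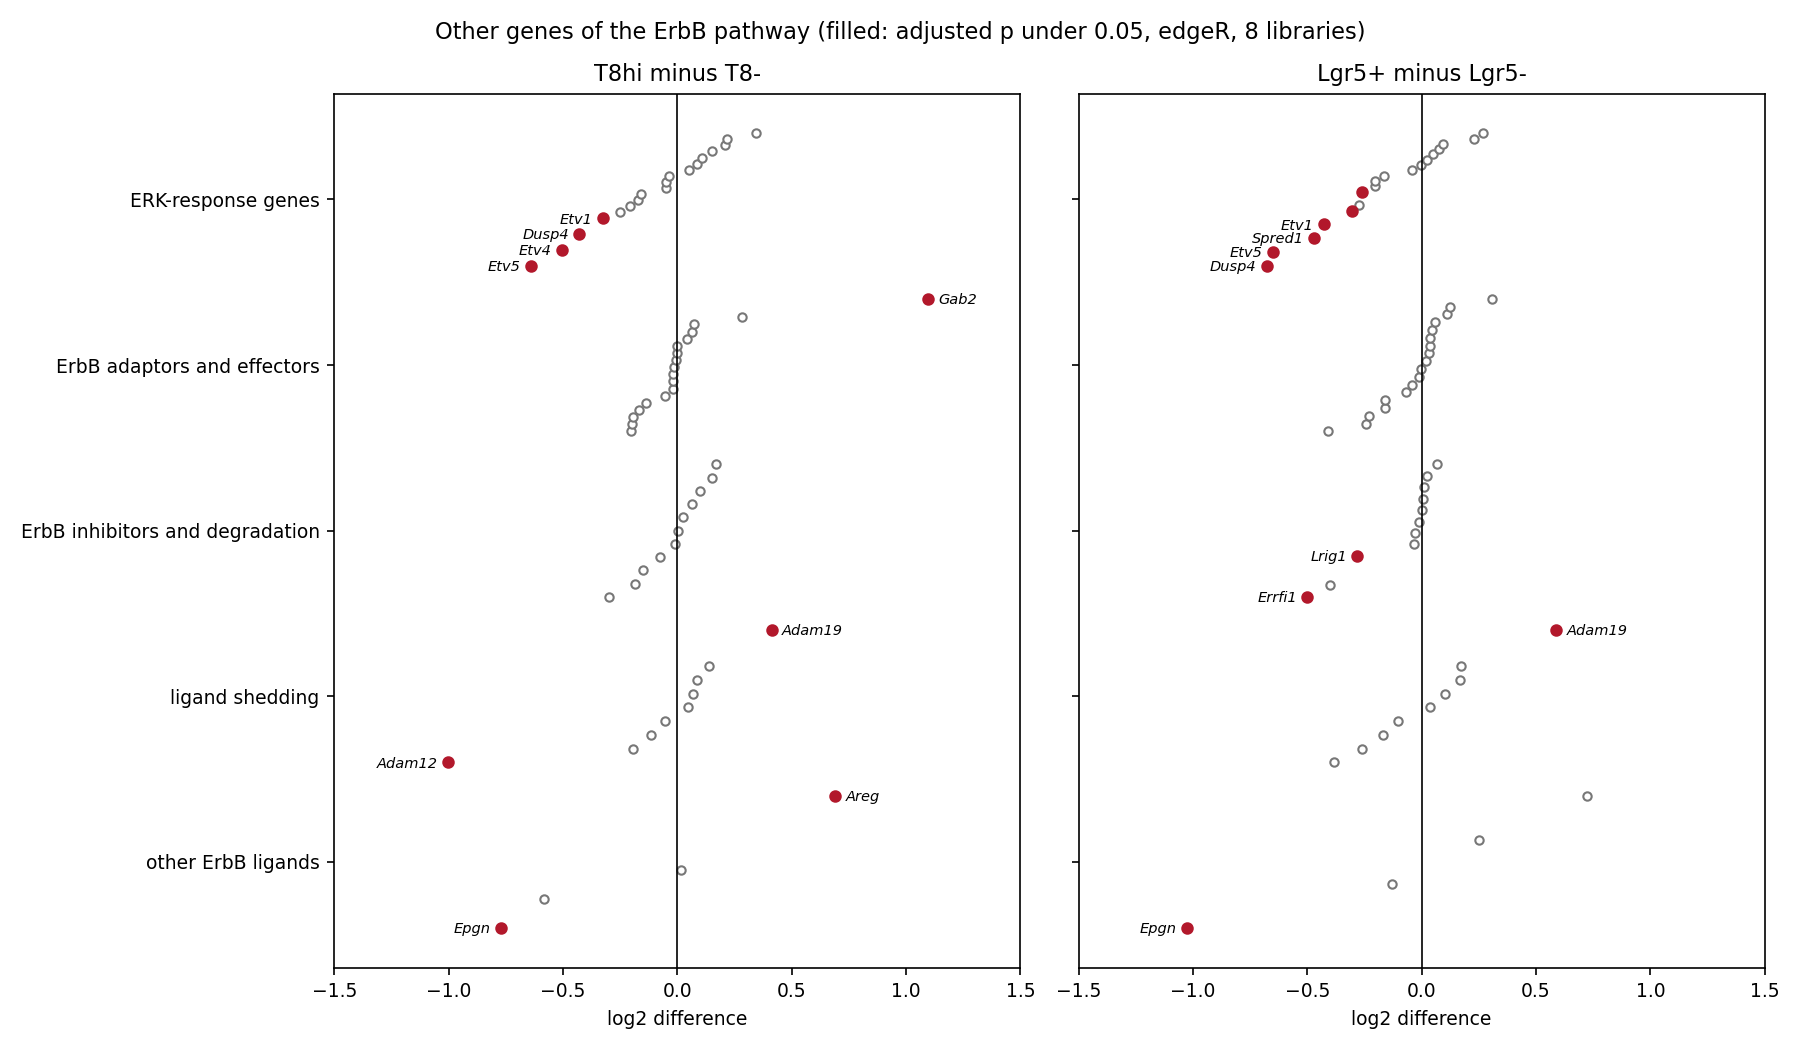
Log2 difference of 60 other pathway genes (edgeR, 8 libraries) by list, for the Tspan8 gate (left) and the Lgr5 gate (right); filled points have an adjusted p under 0.05 and the height within a list only separates points. Filled ERK-response genes lie left of 0 in both panels, and Areg and Epgn lie on opposite sides for Tspan8, at 0.69 and -0.77.

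For members whose mean level reached 5 CPM, the genes with the most similar pattern were found by the root-mean-square (RMS) difference in log2 CPM over the 8 libraries, after centring each gene within its batch, among 10557 genes. Nrg1 lay closest to Col4a1 (RMS difference 0.0957), Htra1 (0.0957) and Col4a2 (0.0973), beside a spread of its own of 0.53. Col4a1 and Col4a2 encode the chains of type IV collagen, a main protein of basement membranes, and Htra1 encodes a secreted protease. Ereg lay closest to Ankrd6 (0.112), Moxd1 (0.113) and Slc27a6 (0.143), with a spread of 0.66. Hbegf lay closest to Dusp1 (0.0426), a phosphatase of the early stress response, Tgm1 (0.0453), a transglutaminase, and Gtf3c5 (0.0468), with a spread of 0.23. Erbb3 lay closest to Dapp1 (0.0844), Slc8b1 (0.0959) and C4a (0.107), and Erbb2 to Ccdc120 (0.0434), Cdc42ep4 (0.0440) and Ulk3 (0.0514). For Egfr the closest were Ankrd28, Gapvd1 and Gtf3c2, and for Tgfa Hspa4l, Sh3bp2 and Lad1, at 0.0267 to 0.0596. The spread of Egfr and Tgfa was itself small, at 0.083 and 0.20, as was that of Erbb2 at 0.16. The measures share 8 libraries and their depth and are descriptions without a test.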

How the data were processed

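Each deposited table gives unnormalized read counts by Entrez identifier, with gene length, per the file headers. Tools in the submitters' processing notes, listed without roles, are featureCounts, CASAVA 1.8.2, limma 3.24.14 and edgeR 3.10.2, with build mm10 (GRCm38). The aligner and the use of strand in counting are not given in the sources used here, so overlapping genes are uncertain. RefSeq GRCm38.p6 gave symbols for 25260 of 27164 genes, and identifiers without a symbol held 2.56 to 2.86% of counts.

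Counts were tested with edgeR 4.0.16 (R 4.3.3): TMM, filterByExpr (minimum count 10; 16526 tested, 10638 left out), robust quasi-likelihood F-tests, two-sided, population plus batch, 8 libraries, 3 residual degrees of freedom, threshold 0.05. The labels state the batch, which equals the replicate number and pairs the libraries (r of deviations across genes 0.415 to 0.55 over 6 pairs). Code was tested on simulated data, where the share of false calls was above the threshold of 0.05 for both gates and the interaction, and highest for the interaction, which also recovered the fewest changed genes. Alternatives were no batch block, RLE, no count filter, DESeq2 1.42.0, limma-voom (limma 3.58.1), a cutoff of 1 CPM reached in 4 libraries, and leaving out each library. Members, lists and tests were chosen with earlier results of these data known. Named pathway genes were up to 4 per list and gate by smallest adjusted p. From each marker list up to 3 were named by level, and for likeness 3 genes per member, of which the result for 1 member is not reported here.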

Additional observations from a re-analysis of the deposited data

Results flagged for a closer look

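For 5 genes the Tspan8 effect differed between Lgr5+ and Lgr5- cells by the interaction test of edgeR, with all 8 libraries. On the log2 scale, within Lgr5+ minus within Lgr5-, the difference was 1.05 ± 0.14 for Nrg1 (adjusted p = 0.00285), 0.86 ± 0.15 for Areg (0.0110), 1.57 ± 0.28 for Gab2 (0.0123), 0.60 ± 0.14 for Spry4 (0.0432) and -1.30 ± 0.15 for the sort gene Lgr5 (0.00164). For Nrg1 the Tspan8 difference lay within Lgr5- cells, and for Areg and Gab2 it was the larger within Lgr5+ cells. With 1 library left out, the calls of Nrg1 and Lgr5 held in all 8 cases, while that of Areg was lost in 1, that of Gab2 in 3 and that of Spry4 in 5.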

How the results depend on the processing

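Without the replicate block, which here is the batch, edgeR called 1 member instead of 5 for Tspan8 and 1 instead of 3 for Lgr5. It called 0 instead of 1 for the interaction, 0 instead of 2 for Tspan8 within Lgr5+, 0 instead of 5 for Tspan8 within Lgr5-, 0 instead of 1 for Lgr5 within T8hi and 0 instead of 3 for Lgr5 within T8-. In those last 5 comparisons 0, 2, 3, 1 and 1 members had an unadjusted p under 0.05 without the block, and DESeq2 and limma-voom, both with it, called 1, 2, 4 to 5, 1 and 3. The common coefficient of variation over all genes was 0.093 with the block and 0.19 without it. The count of all genes called without the block is not given here, so the loss cannot be read as particular to these members. Leaving out each library in turn gave 3 to 5 members for Tspan8 (3 without Lgr5-T8hi replicate 2), 2 to 4 for Lgr5, 1 to 1 for the interaction, 0 to 2 and 2 to 5 for Tspan8 within Lgr5+ and Lgr5-, 0 to 1 and 3 to 3 for Lgr5 within T8hi and T8-, and 4 to 5 for batch. A population left with 1 library was assumed to vary like the others. The called single-gene results include those for the sort genes Lgr5 and Tspan8. Pathway genes and separate comparisons taken up because they had passed are also among them. Of these 54 called results 0 changed sign. They passed in 267 of 270 values under RLE, the other filters, DESeq2 and limma-voom, in 13 of 48 without the block and in 357 of 432 with a library left out. Uncalled values near 0 did change sign. Egfr for Tspan8 (-0.0018) became 0.00030 with RLE, 0.00028 with DESeq2 and 0.011 with at least 1 CPM in 4 libraries, and ran from -0.040 to 0.056 with a library left out. In the same way Tgfa for Tspan8 ran from -0.038 to 0.22 and Erbb3 for Lgr5 from -0.12 to 0.064. For the interaction Egfr ran from -0.14 to 0.049, Erbb3 from -0.32 to 0.072, Erbb4 from -0.057 to 0.42, Tgfa from -0.41 to 0.11 and Ereg from -0.26 to 0.35. For the lost calls the cause was not tested. Erbb4 and Btc, at 4 to 29 counts, were left out by the filter of at least 1 CPM, and depth limits what they can show.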
